A study of Mus musculus with 30 samples.

Results

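The genes described here act on vascular tone and on the signals of the receptors that set it. They are the endothelin receptors Ednra and Ednrb, the peptide endothelin (Edn1), the angiotensin II receptors Agtr1a and Agtr2, the peptide adrenomedullin (Adm), and the regulators of G protein signalling Rgs2, Rgs4 and Rgs5. These 9 genes were chosen by name, with earlier results of the same arrays in view, out of 18194 genes that the probe annotation names by a single symbol. Of the 9, 8 were named there and all 8 passed the filter on low signal, among 12674 genes tested. Ednra was not analysed here. For each gene, the probe set (a group of short probes against a transcript) with the highest mean over all 30 arrays was used, and its other probe sets served as a check. Ednrb has 3 probe sets, Adm 2, Rgs2 4, Rgs4 3 and Rgs5 4, while Edn1, Agtr1a and Agtr2 have 1 each. The change of Ednrb with p53 siRNA in the hnRNPKKD experiment was among the earlier results. So every change of that contrast, and every difference that uses its p53 siRNA arrays, is given as a description without a p-value. Its control arrays also serve the other siRNA comparisons with control in hnRNPKKD, and the difference of lincP21 siRNA between experiments. The p-values of those comparisons are therefore not free of the choice of genes.

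The arrays measured mouse embryonic fibroblasts from E13.5 embryos of the strain C57BL/6 x 129SvJ. The cells were p53 LSL/LSL: a stop cassette between lox sites keeps the endogenous p53 gene off until Cre recombinase removes it. In the time course, adenovirus carrying GFP (AdenoGFP, p53 still off) or Cre (AdenoCRE, p53 restored) was added for 24 h, and doxorubicin, which damages DNA, was then given at 500 nM for 0, 1, 3, 6 or 9 h, with 1 array for each virus and time. In the siRNA experiments every group, controls included, received AdenoCRE for 24 h, siRNA for 24 h and 100 nM doxorubicin for 13 h. The experiment named lincP21KD in the labels holds 2 control arrays with a non-targeting siRNA pool, 3 with siRNA against p53 and 3 with siRNA against lincP21, a large intergenic non-coding RNA. The experiment named hnRNPKKD holds 3 arrays each with the non-targeting pool and with siRNA against p53, lincP21 or hnRNP K, an RNA-binding protein. Restored p53 and the Cre protein itself cannot be told apart in the virus comparison, because the control virus carries no Cre.

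Endothelin receptors, angiotensin receptors and the adrenomedullin receptor are membrane-spanning proteins that pass their signal on through heterotrimeric G proteins. Endothelin and angiotensin II mainly contract vessels, whereas adrenomedullin relaxes them. The RGS proteins speed up the hydrolysis of GTP on G protein alpha subunits and so shorten these signals. Rgs5 is best known from pericytes and vascular smooth muscle, and fibroblasts in culture are known to respond to endothelin and angiotensin.

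Promoters were searched for the p53 consensus decamer, the 10-base element of which p53 sites are built. RefSeq promoter sequences (build GRCm38.p6, 250 bases before the start) were at hand for 8 of the 9 genes, with no entry for Agtr1a. The decamer occurred in 2 of these 8, Ednrb at -143 to -134 and Rgs5 at -168 to -159, beside 7.13% of 32851 promoters of the same length. Both strands were searched for every motif. These 2 promoters are printed because Ednrb and Rgs5 had the changes of greatest size with p53 siRNA in each siRNA experiment, in opposite directions. Each sequence runs 5′ to 3′ on its gene's strand. Capitals mark the decamer, and positions count back from the transcription start.
Ednrb, chr14:103843702-103843951, minus strand: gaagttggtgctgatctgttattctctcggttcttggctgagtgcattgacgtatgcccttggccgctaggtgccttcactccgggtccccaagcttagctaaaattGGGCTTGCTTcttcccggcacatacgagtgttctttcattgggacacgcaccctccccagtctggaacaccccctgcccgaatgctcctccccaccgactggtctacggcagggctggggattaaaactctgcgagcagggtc
Rgs5, chr1:169655251-169655500, plus strand: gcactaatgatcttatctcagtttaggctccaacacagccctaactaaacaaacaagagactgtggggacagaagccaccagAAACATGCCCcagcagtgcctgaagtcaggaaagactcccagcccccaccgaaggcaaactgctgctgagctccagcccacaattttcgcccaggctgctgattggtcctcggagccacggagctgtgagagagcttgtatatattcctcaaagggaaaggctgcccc

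Other motifs were described in the same windows. The CCAAT box was found in 6 of the 8 promoters, in Ednrb, Edn1, Agtr2, Rgs2, Rgs4 and Rgs5, beside 33.8% of all promoters, and in Ednrb a match at -146 to -142 overlaps the decamer. The GC box GGGCGG was found in 2, Adm and Rgs2 (32.7% of all), and the TATA box TATAAA in 1, Rgs4 (12.4% of all). The AP-1 element TGANTCA was found in 0 of the 8 (6.75% of all). A match of letters is a description and not a binding site. Rgs4 and Rgs5 are neighbouring protein-coding genes on chromosome 1 in this build.

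The arrays carried the labelled conditions. Cdkn1a, a classical p53 target whose product p21 stops the cell cycle, was 3.85 ± 0.15 higher (log2 change ± SE) with AdenoCRE, and with p53 siRNA it was 2.07 ± 0.11 lower in lincP21KD and 2.64 ± 0.18 lower in hnRNPKKD. In hnRNPKKD, p53 siRNA replicate 2 kept more Cdkn1a (11.41) than replicates 1 and 3 (10.52 and 10.61), and hnRNP K siRNA replicate 3 kept more Hnrnpk (9.94) than replicates 1 and 2 (8.38 and 8.34). The median array signal was 4.98 to 5.03 in the time course, 5.55 to 5.66 in lincP21KD and 4.83 to 4.91 in hnRNPKKD, so levels are compared only within an experiment. All 12 fibroblast markers passed the filter, with a mean list signal of 11.72 to 12.72 over all arrays. Of 10 endothelial markers Kdr, Egfl7 and Esam passed, and 7 were below it, Pecam1, Cdh5, Tek, Tie1, Emcn, Cldn5 and Vwf. Of 8 pericyte markers Cspg4, Pdgfrb, Notch3, Mcam and Ndufa4l2 passed, and Kcnj8, Abcc9 and Higd1b were below it. The mean signal of Pdgfrb was 11.66 in the time course, 11.81 in lincP21KD and 10.66 in hnRNPKKD. Of 10 melanocyte and neural crest markers 3 passed, Sox10, Mitf and Pmel, and Dct, Tyr, Tyrp1, Mlana and Erbb3 were below. The labels do not say whether replicates were separate cultures, so p-values measure the spread between these arrays only. In bulk RNA, fewer cells of a type and less RNA per cell cannot be told apart.

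**Figure D1:**
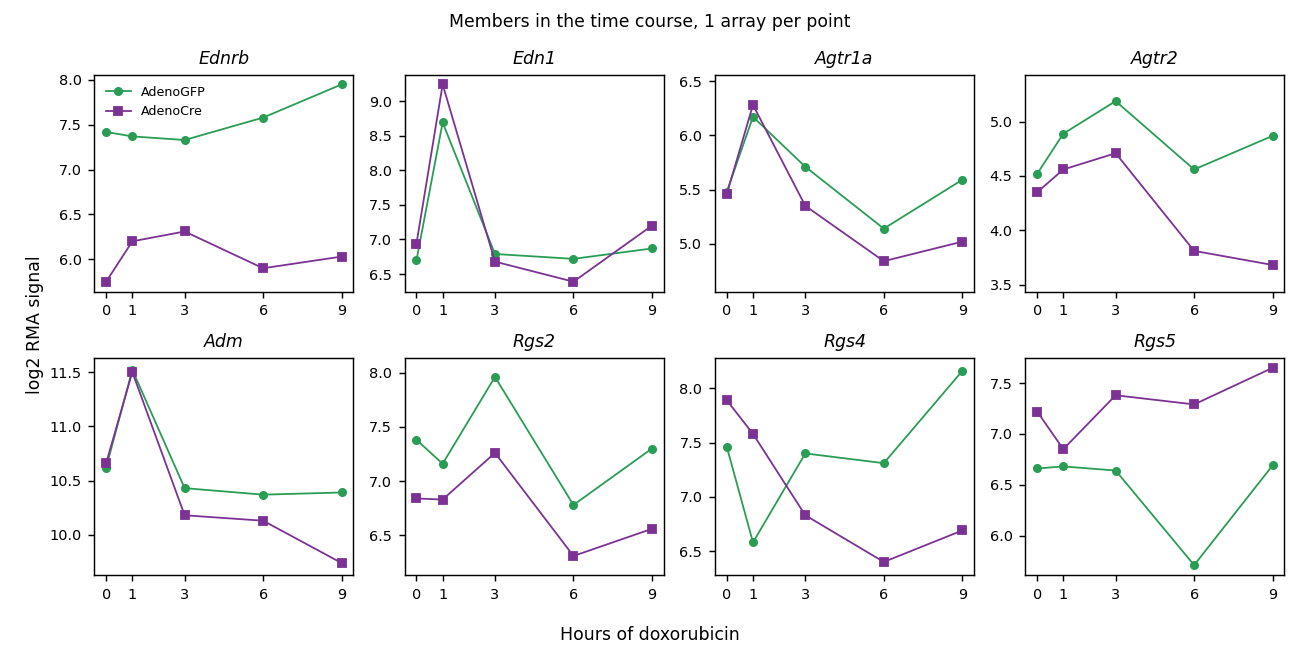
Log2 RMA signal of each gene (vertical axis) against hours of doxorubicin (horizontal axis), for AdenoGFP (green circles) and AdenoCRE (purple squares), 1 array per point. On the probe sets used in the tests, Ednrb lies lower and Rgs5 higher with AdenoCRE at every time, and Edn1 peaks at 1 h with both viruses (8.69 and 9.24).

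In the time course, p53 restoration went with a lower endothelin B receptor and a higher Rgs5. Ednrb and Rgs2 fell with AdenoCRE by 1.49 ± 0.14 and 0.56 ± 0.09 on the log2 scale (SE, 5 time pairs), Agtr2 fell by 0.59 ± 0.14, and Rgs5 rose by 0.80 ± 0.18. In all, 4 of the 8 genes passed the test, 1 higher and 3 lower, beside 19.1% of all genes tested, 12.9% higher and 6.24% lower. Agtr2 was among them, with signal around the filter limit of 4.54. The median change of the 8 genes was -0.26 and that of all tested genes 0.04. A gene passes at an adjusted p below 0.05, from limma with Benjamini-Hochberg adjustment over all 12674 genes. With AdenoCRE, 5 of 8 smooth muscle markers were also higher, and their mean list signal was 9.53 to 9.82 against 9.06 to 9.46 with AdenoGFP. Of 5 tested pericyte markers 2 were higher and 1 lower. Fibroblast markers were higher in 1 and lower in 3 of 12, with a mean list signal of 12.21 to 12.48 against 12.58 to 12.72 with AdenoGFP. Macrophage markers were higher in 2 and lower in 0 of 5 tested. The part of these markers in the results was not tested.

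Ednrb, which binds all endothelin isoforms, was already lower with AdenoCRE at 0 h, before doxorubicin. The AdenoGFP arrays read 7.42, 7.37, 7.33, 7.58 and 7.95 at 0, 1, 3, 6 and 9 h, and the AdenoCRE arrays 5.75, 6.20, 6.31, 5.90 and 6.03. Every AdenoCRE array lay below every AdenoGFP array. The difference was -1.67 at 0 h, narrowed to -1.03 at 3 h and was -1.92 at 9 h, and its mean gave an adjusted p of 0.000712 (limma), the 11th lowest change of all genes tested. Its other probe sets changed by -0.48 and -0.57, and the mean over probe sets was -0.85, which still passed.

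Agtr2, the angiotensin receptor that is abundant in fetal tissue, was near the filter limit of 4.54 in these cells. The filter used its mean over all 30 arrays, 5.96, which hnRNPKKD group means of 7.11 to 9.19 raised. In the time course its mean was 4.81 with AdenoGFP and 4.22 with AdenoCRE, so its test here rests on signal around the limit. It read 4.52, 4.89, 5.19, 4.56 and 4.87 with AdenoGFP and 4.35, 4.56, 4.71, 3.81 and 3.68 with AdenoCRE. The ranges overlapped, but AdenoCRE was lower at each time, by 0.18 at 0 h and 1.19 at 9 h. The adjusted p of 0.0258 (limma) rested on single pairs: it rose above 0.05 without the 3 h, the 6 h or the 9 h pair, and without the time block, to at most 0.0973. Agtr1a, the main pressor receptor of angiotensin II, changed by -0.23 (adjusted p = 0.197), with arrays from 5.14 to 6.17 with AdenoGFP and from 4.84 to 6.28 with AdenoCRE.

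The peptides differed little between viruses and moved with time. Edn1 read 6.70, 8.69, 6.79, 6.72 and 6.87 with AdenoGFP and 6.94, 9.24, 6.68, 6.39 and 7.20 with AdenoCRE over the 5 times. The 1 h array stood above the 0 h array by 1.99 with AdenoGFP and by 2.30 with AdenoCRE. In both viruses it stood above both the 0 h and the 3 h array by at least 1.90, a size that put Edn1 at rank 6 of 12674 genes (0.0473%). This has no test, since there is 1 array for each virus and time, and it was noticed after the values were seen. Adm read 10.62, 11.52, 10.43, 10.37 and 10.39 with AdenoGFP and 10.66, 11.50, 10.18, 10.13 and 9.74 with AdenoCRE. Its 1 h arrays were highest with both viruses, by at least 0.84 over the 0 h and 3 h arrays (rank 28, 0.221%). Agtr1a followed with at least 0.47 (rank 73, 0.576%). The changes between viruses were 0.14 for Edn1 (adjusted p = 0.502) and -0.22 for Adm (adjusted p = 0.209).

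Among the regulators, Rgs2, which acts mainly on Gq-coupled signals, read 7.38, 7.16, 7.96, 6.78 and 7.30 with AdenoGFP and 6.84, 6.83, 7.26, 6.31 and 6.56 with AdenoCRE. AdenoCRE was lower at each time by 0.34 to 0.74, although the ranges overlapped, and the adjusted p (limma) was 0.00585 with time as a block and 0.127 without it. Of its other probe sets 2 changed by -0.95 and -0.82, and the dimmest by 0.12. Rgs5 read 6.66, 6.68, 6.64, 5.71 and 6.69 with AdenoGFP and 7.22, 6.85, 7.38, 7.29 and 7.65 with AdenoCRE. Its ranges did not overlap, and the difference ran from 0.17 at 1 h to 1.58 at 6 h, where the AdenoGFP array was low. The adjusted p was 0.0183 (limma), rose to at most 0.0583 without the 3 h or the 9 h pair, and the other 3 probe sets changed by 0.44, 0.25 and 0.16 (mean over probe sets 0.42, still past the threshold). On those 3 the difference was 1.13, -0.17 and -0.63 at 6 h and -0.08, 0.14 and -0.17 at 1 h. So the higher signal at every time held only on the tested probe set.

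Rgs4 crossed between the viruses. It read 7.46, 6.58, 7.40, 7.31 and 8.16 with AdenoGFP and 7.89, 7.58, 6.83, 6.40 and 6.69 with AdenoCRE, so that the AdenoCRE array was 0.43 and 1.00 higher at 0 and 1 h and 0.57, 0.91 and 1.47 lower at 3, 6 and 9 h. Its other 2 probe sets showed the same signs at all 5 times. The mean change of -0.30 ± 0.32 did not pass (adjusted p = 0.548). The slope over hours differed by -0.25 ± 0.07 per hour between viruses (unadjusted p = 0.00458), which failed the correction (adjusted p = 0.283, limma).

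No member passed a test of a straight-line change with time. By limma, 0 of 8 passed within AdenoGFP, beside 0.00789% of all genes, 0 of 8 within AdenoCRE, beside 5.4% (3.95% higher and 1.45% lower), and 0 of 8 for the difference of slopes, beside 0.181%. At an unadjusted p below 0.05 the counts were 1 (Ednrb), 4 (Agtr1a, Agtr2, Adm and Rgs4) and 1 (Rgs4). The share of all genes at that unadjusted threshold is not given here, so nothing is read from these counts. In AdenoCRE those 4 slopes were -0.11, -0.10, -0.14 and -0.14 per hour. A peak at 1 h is not a straight line, so these tests do not bear on the 1 h values of Edn1 and Adm.

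**Figure D2:**
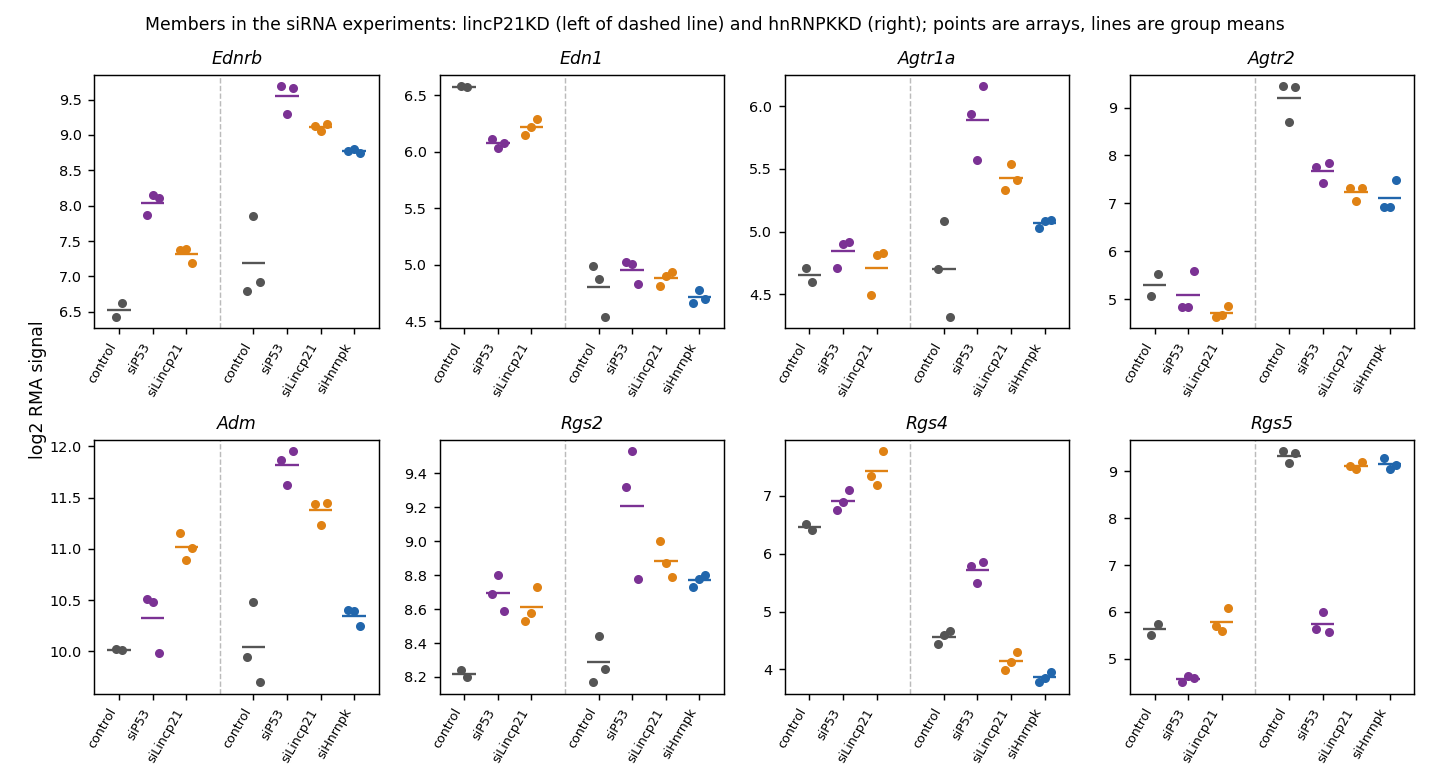
Log2 RMA signal of each gene (vertical axis) by siRNA group, with lincP21KD left and hnRNPKKD right of the dashed line; points are arrays and short lines are group means. Ednrb lies above its controls in all 5 siRNA groups, and Rgs5 in hnRNPKKD lies at 5.56 to 6.00 with p53 siRNA and at 9.05 to 9.43 in the other groups.

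In lincP21KD, p53 siRNA moved Ednrb up and Rgs5 down against the 2 control arrays. Ednrb rose by 1.51 ± 0.11 and Rgs2 by 0.47 ± 0.09, while Edn1 fell by 0.50 ± 0.07 and Rgs5 fell by 1.06 ± 0.14 (log2, SE). That made 4 of 8 genes called, 2 in each direction, beside 12.7% of all genes, 7.01% higher and 5.74% lower, with a median change of 0.25 against 0.02. With lincP21 siRNA 5 of 8 were called, 4 higher and 1 lower, beside 11.9% of all genes, 7.47% higher and 4.39% lower, with a median of 0.28 against 0.01. Both comparisons use the same 2 control arrays. Of 8 macrophage markers 5 were tested, Cd68, Csf1r, Lyz2, Cd14 and Fcgr1, with Adgre1, Ptprc and Itgam below the filter. With p53 siRNA 3 of these 5 were lower (median -0.41), the mean list signal being 5.46 to 5.53 against 5.75 to 5.84 in the controls. Fibroblast markers were higher in 3 of 12 with p53 siRNA and in 4 of 12 with lincP21 siRNA, and the part of these markers was not tested.

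The lincP21KD control arrays of Ednrb read 6.43 and 6.63, the p53 siRNA arrays 7.87, 8.15 and 8.11, and the lincP21 siRNA arrays 7.37, 7.39 and 7.19. The groups did not overlap and lay in the order control, lincP21 siRNA, p53 siRNA. Adjusted p-values (limma) were 3.46e-05 for p53 siRNA and 0.00261 for lincP21 siRNA, whose change was 0.79 ± 0.11. The difference between these siRNAs was 0.73 (adjusted p = 0.00073). The other probe sets changed by 0.59 and 0.74 with p53 siRNA and by 0.11 and 0.30 with lincP21 siRNA. The means over probe sets were 0.95 and 0.40, both still past the threshold.

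Edn1 read 6.58 and 6.57 in the controls, 6.11, 6.03 and 6.08 with p53 siRNA and 6.15, 6.22 and 6.29 with lincP21 siRNA. The controls were above every other array. The fall was 0.50 with p53 siRNA (adjusted p = 0.00203, limma), and with lincP21 siRNA it was 0.36 ± 0.07 (adjusted p = 0.0145). The second call ended without either control array or without lincP21 siRNA replicate 1, with an adjusted p of up to 0.116.

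Adm separated the siRNAs in this experiment. It read 10.02 and 10.01 in the controls, 10.51, 10.48 and 9.98 with p53 siRNA and 11.15, 10.89 and 11.01 with lincP21 siRNA. It rose by 1.00 ± 0.15 with lincP21 siRNA (adjusted p = 0.00325, limma), a 2.00-fold change, while the change with p53 siRNA was 0.31 (adjusted p = 0.231). p53 siRNA replicate 3 lay at the controls, and without it the p53 siRNA change was called (adjusted p = 0.0168). The difference between the siRNAs was -0.69 (adjusted p = 0.00535), and the second probe set changed by 0.35 and 0.90.

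The angiotensin receptors of lincP21KD did not pass against control. Agtr1a lay between 4.49 and 4.92 on all 8 arrays, with changes of 0.19 (adjusted p = 0.348) and 0.06 (adjusted p = 0.809). Agtr2 read 5.07 and 5.53 in the controls, 4.83, 4.84 and 5.58 with p53 siRNA and 4.63, 4.67 and 4.85 with lincP21 siRNA. With lincP21 siRNA every array was below the controls, by 0.58 ± 0.22 in the mean (adjusted p = 0.117), and with the replicate number as a block the change was -0.74 (adjusted p = 0.0181, limma).

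Rgs2 rose with both siRNAs in lincP21KD. Its arrays read 8.24 and 8.20 in the controls, 8.69, 8.80 and 8.59 with p53 siRNA and 8.53, 8.58 and 8.73 with lincP21 siRNA, where the change was 0.40 ± 0.09. The adjusted p-values of 0.00795 and 0.0214 (limma) both ended above 0.05 when either control array was left out, at up to 0.0718 and 0.135, and the second also with the mean over probe sets (0.29, adjusted p = 0.0681).

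Rgs4 read 6.51 and 6.41 in the controls, 6.76, 6.89 and 7.11 with p53 siRNA and 7.34, 7.19 and 7.77 with lincP21 siRNA. It rose by 0.97 ± 0.16 with lincP21 siRNA (adjusted p = 0.00503, limma) and its change with p53 siRNA was 0.46 ± 0.16 (adjusted p = 0.0924). The 2 siRNAs differed by -0.51 (adjusted p = 0.0295), a call that ended in 4 of 6 fits with an array left out. On the mean over probe sets the rise with lincP21 siRNA was 0.62.

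Rgs5 separated p53 siRNA from the other groups on its brightest probe set. It read 5.51 and 5.75 in the controls, 4.50, 4.63 and 4.59 with p53 siRNA and 5.70, 5.60 and 6.08 with lincP21 siRNA. The p53 siRNA arrays lay around the filter limit of 4.54. The adjusted p with p53 siRNA was 0.000875 (limma), the change with lincP21 siRNA was 0.16 (adjusted p = 0.495), and the siRNAs differed by -1.22 (adjusted p = 0.000132). Its other 3 probe sets changed by -0.14, -0.10 and -0.14 with p53 siRNA, and their signal in this experiment was 3.78 to 5.08 in those groups. The mean over probe sets gave -0.36 against control and -0.50 between the siRNAs. Of 5 tested pericyte markers 2 were higher and 1 lower with p53 siRNA and 2 higher with lincP21 siRNA, with median changes of 0.29 and 0.31. The mean signal of that list was 6.53 to 6.61 with p53 siRNA, 6.77 to 6.83 with lincP21 siRNA and 6.57 to 6.61 in the controls, and its part was not tested. In all, 4 of the 8 genes differed between the 2 siRNAs, 1 higher with p53 siRNA (Ednrb) and 3 lower (Adm, Rgs4 and Rgs5), beside 20.4% of all genes, 9.22% higher and 11.2% lower.

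**Figure D3:**
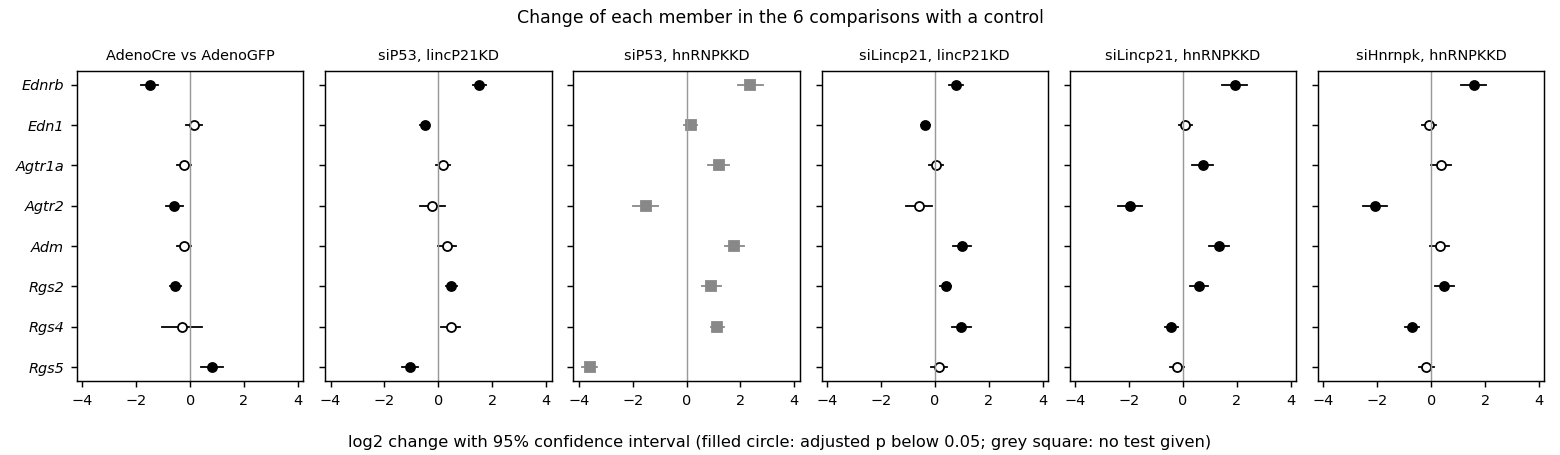
Log2 change of each gene (rows) with its 95% confidence interval in the 6 comparisons with a control (panels); filled points have an adjusted p below 0.05, and grey squares mark the contrast given without a test. Ednrb and Rgs2 are filled in the other 5 panels, lower with AdenoCRE and higher with each siRNA, and the grey square of Rgs5 stands at -3.60.

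In hnRNPKKD, p53 siRNA went with the changes of greatest size in Rgs5 and Ednrb. Against the 3 controls, Rgs5 was lower by 3.60 ± 0.12 (log2, SE), a 12.1-fold difference, and Ednrb was higher by 2.36 ± 0.21, a 5.15-fold difference. Of the 12674 genes, 4 had a lower value than Rgs5 and 4 a higher value than Ednrb. Adm (1.77 ± 0.17), Agtr1a (1.19 ± 0.18), Rgs4 (1.14 ± 0.12) and Rgs2 (0.92 ± 0.16) were higher, and Agtr2 was 1.52 ± 0.21 lower. So 7 of 8 were past the threshold, 5 higher and 2 lower, beside 38.6% of all genes, 19.3% higher and 19.2% lower, and nothing is read from that count because the contrast was in view when the genes were chosen. Without p53 siRNA replicate 2, which kept more Cdkn1a, the change was -3.73 for Rgs5 and 2.49 for Ednrb.

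With lincP21 siRNA 6 of 8 were called, 4 higher and 2 lower, beside 29% of all genes, 17.2% higher and 11.8% lower, with a median change of 0.34 against 0.01. With hnRNP K siRNA 4 of 8 were called, 2 in each direction, beside 26.9% of all genes, 14.1% higher and 12.8% lower, with a median of 0.11 against 0.00. The comparisons share their 3 control arrays with each other and with the p53 siRNA contrast that was in view. Of 5 tested pericyte markers 3 were higher with lincP21 siRNA, and their mean list signal was 6.36 to 6.42 against 5.84 to 5.91 in the controls. Smooth muscle markers were higher in 4 of 8 with lincP21 siRNA, in 3 of 8 with p53 siRNA and in 0 of 8 with hnRNP K siRNA. Fibroblast markers were higher in 7 and lower in 1 of 12 with p53 siRNA (median 0.39), higher in 6 and lower in 2 with lincP21 siRNA (median 0.31) and 2 each way with hnRNP K siRNA. Macrophage markers were lower in 2 of 5 with p53 siRNA (median -0.43), with a mean list signal of 4.66 to 5.03 against 5.37 to 5.45 in the controls. The part of these markers was not tested.

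Ednrb read 6.79, 7.85 and 6.92 in the hnRNPKKD controls, 9.69, 9.30 and 9.66 with p53 siRNA, 9.13, 9.06 and 9.15 with lincP21 siRNA and 8.77, 8.80 and 8.75 with hnRNP K siRNA. Control replicate 2 stood above the other controls, and still every siRNA array was above it. Ednrb rose by 1.92 ± 0.21 with lincP21 siRNA (adjusted p = 3.72e-05) and by 1.59 ± 0.21 with hnRNP K siRNA (adjusted p = 0.000169, limma). Both tests use the control arrays of the Ednrb change that was in view, so their p-values are not free of that choice. The other probe sets changed by 1.26 and 0.77 with lincP21 siRNA and by 1.14 and 0.57 with hnRNP K siRNA. p53 siRNA was 0.78 above hnRNP K siRNA (0.42 on the mean over probe sets) and 0.44 above lincP21 siRNA, with a 95% interval of -0.02 to 0.90.

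The angiotensin receptors went in opposite directions. Agtr1a read 4.70, 5.08 and 4.32 in the controls, 5.94, 5.57 and 6.16 with p53 siRNA, 5.33, 5.54 and 5.41 with lincP21 siRNA and 5.03, 5.08 and 5.09 with hnRNP K siRNA. It rose by 0.73 ± 0.18 with lincP21 siRNA (adjusted p = 0.00774, limma). With hnRNP K siRNA its change was 0.37 (adjusted p = 0.152), which was called without control replicate 2 (0.56, adjusted p = 0.0297).

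Agtr2 read 9.45, 8.70 and 9.43 in the controls, 7.75, 7.42 and 7.84 with p53 siRNA, 7.32, 7.05 and 7.33 with lincP21 siRNA and 6.93, 6.92 and 7.49 with hnRNP K siRNA. Every siRNA array was below every control. It fell by 1.96 ± 0.21 with lincP21 siRNA (adjusted p = 2.72e-05), the 8th lowest change of all genes, and by 2.08 ± 0.21 with hnRNP K siRNA (adjusted p = 2.12e-05, limma), the 10th lowest. These are 3.89-fold and 4.23-fold differences.

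The peptides of hnRNPKKD behaved unlike each other. Edn1 lay between 4.54 and 5.02 on all 12 arrays, and its changes were 0.15, 0.09 (adjusted p = 0.622) and -0.09 (adjusted p = 0.643) with p53, lincP21 and hnRNP K siRNA. Adm read 9.94, 10.48 and 9.70 in the controls, 11.87, 11.62 and 11.95 with p53 siRNA, 11.44, 11.23 and 11.45 with lincP21 siRNA and 10.40, 10.39 and 10.25 with hnRNP K siRNA. Adm rose by 1.33 ± 0.17 with lincP21 siRNA (adjusted p = 8.99e-05, limma), and its hnRNP K siRNA arrays overlapped the controls (0.31, adjusted p = 0.212). Without control replicate 2 that last change was called (0.53, adjusted p = 0.012). The second Adm probe set changed by 1.34, 1.17 and 0.33.

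Rgs2 read 8.17, 8.44 and 8.25 in the controls, 9.32, 9.53 and 8.78 with p53 siRNA, 9.00, 8.87 and 8.79 with lincP21 siRNA and 8.73, 8.78 and 8.80 with hnRNP K siRNA. The siRNA groups lay above the controls, and p53 siRNA replicate 3 lay with the other siRNA groups. Rgs2 rose by 0.60 ± 0.16 with lincP21 siRNA (adjusted p = 0.0121, limma) and by 0.49 ± 0.16 with hnRNP K siRNA (adjusted p = 0.0364). The first call ended without lincP21 siRNA replicate 1 (adjusted p = 0.0515). The second ended in 5 of 6 fits with an array left out, at an adjusted p of up to 0.118, and its mean over probe sets was 0.30.

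Rgs4 differed in direction between siRNAs. It read 4.43, 4.60 and 4.67 in the controls, 5.78, 5.49 and 5.86 with p53 siRNA, 3.99, 4.13 and 4.30 with lincP21 siRNA and 3.78, 3.85 and 3.95 with hnRNP K siRNA. The groups other than p53 siRNA were near or below the filter limit. Rgs4 fell by 0.71 ± 0.12 with hnRNP K siRNA (adjusted p = 0.000798, limma) and by 0.43 ± 0.12 with lincP21 siRNA (adjusted p = 0.0165), where the call ended without lincP21 siRNA replicate 1 or control replicate 3. The higher value with p53 siRNA was seen on 1 of 3 probe sets, since the other 2 changed by 0.11 and 0.09 (mean over probe sets 0.45). The other probe sets changed by -0.31 and -0.19 with hnRNP K siRNA and by -0.30 and -0.08 with lincP21 siRNA, with means of -0.40 and -0.27.

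Rgs5 read 9.43, 9.18 and 9.40 in the controls, 5.64, 6.00 and 5.56 with p53 siRNA, 9.12, 9.05 and 9.20 with lincP21 siRNA and 9.28, 9.06 and 9.14 with hnRNP K siRNA. The p53 siRNA arrays stood more than 3 log2 units below every other array. The changes with lincP21 siRNA (-0.21, adjusted p = 0.225, limma) and hnRNP K siRNA (-0.18, adjusted p = 0.333) did not pass. All 4 probe sets were lower with p53 siRNA, the other 3 with changes of -3.34, -2.36 and -2.63. Of 5 tested pericyte markers 2 were higher and 1 lower with p53 siRNA, and the mean signal of that list was 5.85 to 6.02, against 5.84 to 5.91 in the controls. With lincP21 siRNA the other 3 Rgs5 probe sets changed by -0.87, -0.43 and -0.67. The mean over the Rgs5 probe sets gave -0.55, which was called (adjusted p = 0.0302, limma).

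**Figure D4:**
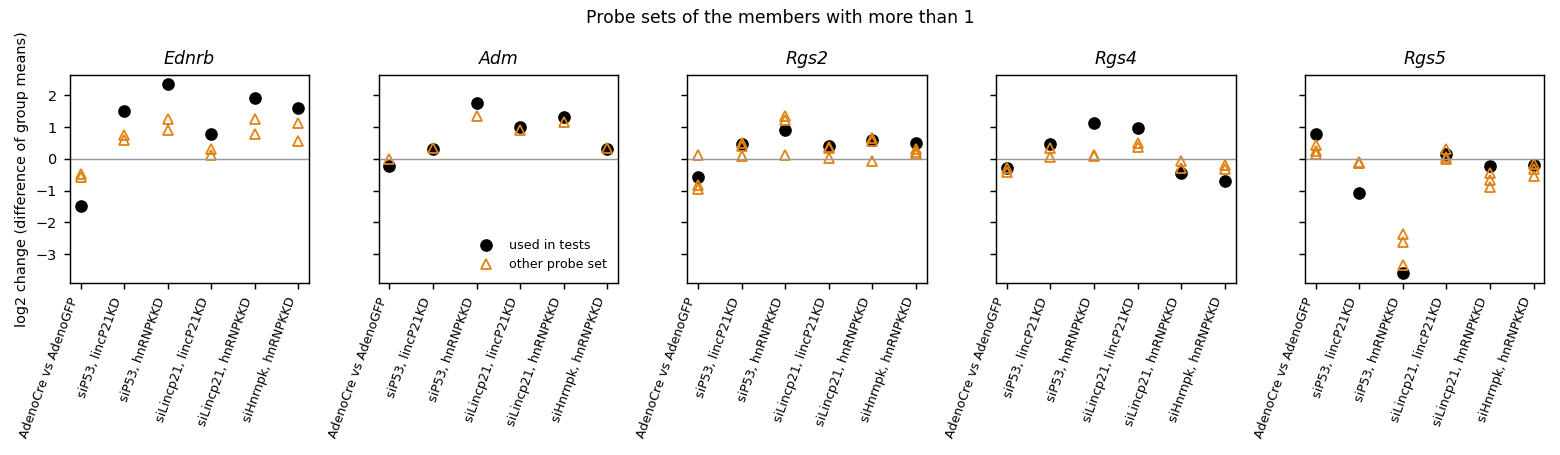
Log2 change (vertical axis, difference of group means) on each probe set of the 5 genes with more than 1, in the 6 comparisons with a control; black circles are the probe set used in the tests and orange triangles the others. Rgs5 is lower on all 4 probe sets with p53 siRNA in hnRNPKKD (-3.60 to -2.36), while for Rgs4 in that contrast only the tested probe set stands at 1.14.

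Direct comparisons in hnRNPKKD set the siRNAs against each other without control arrays, and those with p53 siRNA are descriptions, from whose counts nothing is read. Between p53 and lincP21 siRNA 2 of 8 genes were past the threshold, beside 38.8% of all genes (17.5% higher, 21.3% lower), Rgs4 at 1.57 ± 0.12 and Rgs5 at -3.39 ± 0.12. Without p53 siRNA replicate 2 the count was 5, with Agtr1a (0.62), Agtr2 (0.56) and Adm (0.54) added. Between p53 and hnRNP K siRNA 7 of 8 were past it, 6 higher and 1 lower, all but Edn1, beside 45.3% of all genes (22.5% higher, 22.9% lower). Among them were Rgs4 at 1.85, Adm at 1.46 and Rgs5 at -3.42, while Agtr2 (0.56) and Rgs2 (0.44) each missed the threshold in 5 alternatives. LincP21 siRNA differed from hnRNP K siRNA in 1 of 8, Adm, beside 27.6% of all genes (15.4% higher, 12.2% lower). Adm was 1.03 ± 0.17 higher with lincP21 siRNA (adjusted p = 0.000583, limma), and the 3 arrays of each group did not overlap.

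The effect of the same siRNA target was compared between the siRNA experiments. For p53 siRNA, where the hnRNPKKD change was in view and nothing is read from the count, 7 of 8 genes were past the threshold, all but Rgs2, 2 with a higher and 5 with a lower change in lincP21KD, beside 14.5% of all genes (7.35% higher, 7.14% lower). The effect of lincP21 siRNA differed in 3 of 8, Ednrb, Agtr2 and Rgs4, beside 8.14% of all genes (3.51% higher, 4.63% lower). Agtr2 was near the filter limit in lincP21KD, at 4.63 to 5.53 in the arrays compared, which limits how far it could fall there. The Rgs4 change with lincP21 siRNA was 0.97 in lincP21KD and -0.43 in hnRNPKKD, a difference of 1.40 (adjusted p = 0.000475, limma) and of 0.89 with the mean over probe sets. Its hnRNPKKD arrays lay below the filter limit of 4.54 with lincP21 siRNA and around it in the controls, and the -0.43 lost its call without lincP21 siRNA replicate 1 or control replicate 3, so the size and direction there are uncertain. The array medians and the control levels also differed between the experiments, and their part in these differences was not tested.

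Likeness of pattern was described over the 30 arrays after each gene's mean within its experiment was taken off. These points share experiments, groups and arrays, and no p-value is given. They include the p53 siRNA arrays of hnRNPKKD, whose contrast was in view when the genes were chosen. Edn1 varied most through its 1 h arrays (8.69 with AdenoGFP and 9.24 with AdenoCRE), so its r values lean on those. Agtr1a and Adm had r = 0.83 with each other, Ednrb and Rgs2 0.73, Ednrb and Agtr1a 0.62, Ednrb and Rgs5 -0.62, and Rgs4 and Rgs5, the neighbouring genes, -0.65. The nearest genes of Ednrb were Tgfbr3 (r = 0.94), Elovl5 (0.90) and Oxct1 (0.86). Those of Adm were Jdp2 (0.94), Pdgfrb (0.90), one of the pericyte markers, and Gxylt2 (0.90), and those of Agtr1a were Slc44a2 (0.89), Gxylt2 (0.88) and Arhgef25 (0.87). Edn1 lay nearest to Arc (0.89), Zfp36 (0.84) and Ier2 (0.83), and Agtr2 to Krt18 (0.88), Pi4k2b (0.86) and Slc30a4 (0.86). Rgs5 lay nearest to Rala, Stox2 and Ankrd50 (each 0.95), Rgs4 to Ncapd2, Haus1 and Zdhhc16 (each 0.85), and Rgs2 to Psph (0.78), Serping1 (0.76) and Dclk1 (0.76).

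For the lists that follow, the share of all tested genes called is the background: 19.1% with AdenoCRE, 12.7% with p53 and 11.9% with lincP21 siRNA in lincP21KD, and 38.6%, 29% and 26.9% with p53, lincP21 and hnRNP K siRNA in hnRNPKKD. None of the list counts was tested against it.

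Of 26 genes that make, process or receive endothelin, angiotensin and adrenomedullin, 15 were tested. With AdenoCRE 2 were higher and 3 lower, beside 12.9% higher and 6.24% lower of all genes, with a median of -0.02 against 0.04, and over the 6 comparisons the list median ran from -0.02 to 0.21 and that of all genes from -0.01 to 0.04. In lincP21KD 0 were called with p53 siRNA, while 9 of the 15 had an unadjusted p below 0.05 (limma). The share of all genes at that unadjusted threshold is not given here, so nothing is read from the 9. With lincP21 siRNA 3 were higher and 1 lower. In hnRNPKKD 4 were higher and 3 lower with p53 siRNA, 4 higher and 0 lower with lincP21 siRNA, and 4 higher and 1 lower with hnRNP K siRNA, beside 38.6%, 29% and 26.9% of all genes called. Ece1, the enzyme that makes active endothelin, rose by 0.85 ± 0.14 with lincP21 siRNA in lincP21KD (adjusted p = 0.0052), and in hnRNPKKD by 1.53 ± 0.17 with lincP21 siRNA (adjusted p = 3.18e-05) and 1.20 ± 0.17 with hnRNP K siRNA (adjusted p = 2e-04). Mme, a peptidase that degrades vasoactive peptides, fell by 1.12 ± 0.24 with AdenoCRE (adjusted p = 0.0155). In hnRNPKKD Mme fell by 0.48 with hnRNP K siRNA (adjusted p = 0.0345, limma), and its change with p53 siRNA was 1.05. Ramp3, a partner of the adrenomedullin receptor, fell by 0.48 with lincP21 siRNA in lincP21KD (adjusted p = 0.00443) and rose by 0.51 with hnRNP K siRNA (adjusted p = 0.0137). Ackr3, a decoy receptor for chemokines that also binds adrenomedullin, fell by 0.50 with AdenoCRE (adjusted p = 0.00764) and rose by 0.47 with hnRNP K siRNA (adjusted p = 0.00382).

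Of 18 other RGS genes 8 were tested. With AdenoCRE 3 were higher and 0 lower, beside 12.9% and 6.24% of all genes, with a median of 0.28 against 0.04. In hnRNPKKD 0 were higher and 4 lower with p53 siRNA, beside 19.3% and 19.2% of all genes. In lincP21KD 1 was lower with p53 siRNA and 0 were called with lincP21 siRNA (0 at an unadjusted p below 0.05, limma). The share of all genes at that unadjusted threshold is not given here either. The list median ran from -0.35 to 0.28. In hnRNPKKD 1 was higher and 1 lower with lincP21 siRNA, and 1 higher and 2 lower with hnRNP K siRNA. Rgs12 rose by 1.87 ± 0.19 with AdenoCRE (adjusted p = 0.00122) and fell by 0.66 ± 0.13 with p53 siRNA in lincP21KD (adjusted p = 0.00994, limma), and its change with p53 siRNA in hnRNPKKD was -1.82 ± 0.14. Rgs10 rose by 0.67 and Rgs17 by 0.74 with AdenoCRE (adjusted p = 0.0134 and 0.00535). In hnRNPKKD their changes with p53 siRNA were -0.57 and -0.73. Rgs10 also rose there by 0.59 with lincP21 siRNA and 0.39 with hnRNP K siRNA (adjusted p = 0.00108 and 0.0139, limma). Rgs16 fell in hnRNPKKD with lincP21 siRNA by 0.71 (adjusted p = 0.00868) and with hnRNP K siRNA by 0.83 (adjusted p = 0.00372).

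Among 49 other vasoactive receptors 21 were tested. With AdenoCRE 3 were higher and 3 lower, and the list median ran from -0.04 to 0.11 over the 6 comparisons. In lincP21KD 4 were higher with p53 siRNA and 3 with lincP21 siRNA, and none was lower in either comparison. In hnRNPKKD the counts were 7 higher and 1 lower with p53 siRNA, 2 and 1 with lincP21 siRNA, and 3 and 3 with hnRNP K siRNA, beside 38.6%, 29% and 26.9% of all genes called. The sphingosine 1-phosphate receptors S1pr3 and S1pr2 rose with both siRNAs in lincP21KD, by 0.41 and 0.52 with p53 siRNA (adjusted p = 0.0427 and 0.00957) and by 0.68 and 0.46 with lincP21 siRNA (adjusted p = 0.0055 and 0.0193). In hnRNPKKD S1pr3 rose by 1.23 with lincP21 siRNA and 1.54 with hnRNP K siRNA (adjusted p = 6.93e-06 and 2.25e-06), and S1pr2 by 0.62 and 0.48 (adjusted p = 0.000466 and 0.00274, limma). F2r, the thrombin receptor, fell by 0.44 with lincP21 siRNA in hnRNPKKD (adjusted p = 0.0054), and Lpar4, a lysophosphatidic acid receptor, fell by 0.84 with AdenoCRE (adjusted p = 0.0292). In hnRNPKKD Lpar4 fell by 0.70 with hnRNP K siRNA (adjusted p = 0.00135, limma), and its change with p53 siRNA was 0.50.

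Of 43 G proteins, effectors and desensitising proteins 38 were tested, and 9 were higher and 1 lower with AdenoCRE, with a list median of -0.01 to 0.13 over the 6 comparisons. In lincP21KD 2 were higher and 2 lower with p53 siRNA, and 5 and 2 with lincP21 siRNA. In hnRNPKKD 8 were higher and 4 lower with p53 siRNA, 10 and 2 with lincP21 siRNA, and 5 and 4 with hnRNP K siRNA, beside 38.6%, 29% and 26.9% of all genes called. Itpr2, a calcium channel that Gq signals open, rose by 0.62 with AdenoCRE (adjusted p = 0.0114) and by 1.37 with lincP21 siRNA in hnRNPKKD (adjusted p = 1.37e-06). Gna15, a Gq-family alpha subunit, rose by 1.84 ± 0.19 with hnRNP K siRNA (adjusted p = 2.73e-05), the adenylate cyclase Adcy6 rose by 0.45 with AdenoCRE (adjusted p = 0.0185), and the beta subunit Gnb4 rose by 0.53 with p53 siRNA in lincP21KD (adjusted p = 0.00562).

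Of 17 natriuretic peptide and nitric oxide genes 10 were tested, with a list median of -0.13 to 0.13. With AdenoCRE 2 were higher and 2 lower, among them the peptide Nppb, which rose by 1.23 ± 0.14 (adjusted p = 0.00159), and its family's receptor Npr2, which rose by 0.87 ± 0.19 (adjusted p = 0.0163). In lincP21KD 1 was higher and 2 lower with p53 siRNA, where Npr2 fell by 0.37 (adjusted p = 0.0218), and 3 higher and 2 lower with lincP21 siRNA, where Nppb fell by 0.92 (adjusted p = 0.00692). In hnRNPKKD 2 were higher and 3 lower with p53 siRNA, 4 and 2 with lincP21 siRNA, and 3 and 2 with hnRNP K siRNA, beside 38.6%, 29% and 26.9% of all genes called. The cGMP-dependent kinases went in opposite directions there: Prkg1 rose by 0.94 and Prkg2 fell by 1.58 with lincP21 siRNA (adjusted p = 0.000101 and 6.37e-05, limma).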

How the data were processed

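The study hybridised total RNA of 30 samples to Affymetrix arrays, and the authors deposited log2 values per probe set made with RMA, per the submitters' processing notes. The version and the set of arrays normalized together are not given in the sources used here. Of 45101 probe sets, 34958 have a single symbol in the platform annotation, 932 have several and 9211 have none, and 34754 symbols were updated through RefSeq. Per gene the probe set with the highest mean over 30 arrays was kept, and those in the lowest 40% of means (below 4.54) were left out of tests. Each experiment was fitted by limma (version 3.58.1, R version 4.3.3; lmFit, eBayes), all groups of an experiment together and time as a block between viruses, with Benjamini-Hochberg adjustment over 12674 genes. Array number, not read depth, limits precision.

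The members and lists were chosen with earlier results of these data known. Genes named are the members, Cdkn1a and Hnrnpk as checks, up to 4 genes per list called in the most comparisons, and the 3 nearest genes of each member. Replicate numbers were checked by the correlation of deviations between arrays of the same number. For hnRNP K siRNA against control they were 0.216, 0.166 and 0.209, and in no other comparison were all pairs above 0.1. Single pairs were higher elsewhere. In hnRNPKKD the values were -0.033, 0.631 and 0.694 between p53 and lincP21 siRNA, and 0.357, 0.359 and -0.186 for p53 siRNA against control. The labels give the numbers no meaning. The numbers were used as a block only as an alternative, and in that hnRNP K comparison the block changed no call. On simulated data, log2 changes of 0.5, 1 and 2 were recovered in 43.3%, 85.1% and 98.5% of cases for the virus comparison, 62.7%, 95.5% and 100% for p53 siRNA in lincP21KD, and 14.9%, 95.5% and 100% for p53 siRNA in hnRNPKKD, each among 12674 genes. Only 66 or 67 genes were changed at each size, a smaller share than was called in the real comparisons (38.6% in the last). The adjustment depends on that share, so recovery in the real data may differ. Alternatives were no filter, median centring, quantile normalization, trended robust variances, the mean over probe sets, the block and leaving out arrays.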

Additional observations from a re-analysis of the deposited data

Results flagged for a closer look

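Among the 16 combinations of gene and virus in the time course, 4 had an array set apart from the other 4 by more of the range than Dixon's critical value of 0.71, a test that chance passes in about 1 in 20 groups, and whose arrays here also differ in time. Edn1 at 1 h read 8.69 with AdenoGFP and 9.24 with AdenoCRE, with gaps of 0.915 and 0.718 of the range. Adm at 1 h with AdenoGFP read 11.52 (gap 0.783). Rgs5 at 6 h with AdenoGFP read 5.71 (gap 0.946), and the difference between viruses at that time was 1.58. On its other probe sets that array read 4.77, 5.30 and 5.26, the lowest of its AdenoGFP series on the first and the highest on the others.

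The change with the same siRNA target also differed between the siRNA experiments, taken as the change in lincP21KD minus that in hnRNPKKD over the siRNA arrays. For p53 siRNA the hnRNPKKD changes were in view when the genes were chosen, so the differences are given without a p-value: 2.54 for Rgs5, -1.46 for Adm, -0.66 for Edn1, -1 for Agtr1a, 1.31 for Agtr2, -0.69 for Rgs4 and -0.85 for Ednrb. Ednrb missed the threshold in 13 of 17 alternatives and Rgs4 in 8 of 17, and Agtr2 missed it without lincP21KD control replicate 1. In lincP21KD Rgs5 read 5.51 and 5.75 in the controls and 4.50 to 4.63 with p53 siRNA, around the filter limit of 4.54. That limits how far it could fall there, while the hnRNPKKD controls read 9.18 to 9.43. Agtr1a and Agtr2 were also low in lincP21KD. The part of low signal in these differences was not tested.

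For lincP21 siRNA the differences were 1.40 for Rgs4 (limma adjusted p = 0.000475), 1.38 for Agtr2 (adjusted p = 0.0144) and -1.14 for Ednrb (adjusted p = 0.0166). The call for Ednrb ended without lincP21KD control replicate 2 and that for Agtr2 without control replicate 1. Agtr2 in lincP21KD read 5.07 and 5.53 in the controls and 4.63 to 4.85 with lincP21 siRNA, near the filter limit. That limits how far it could fall there, while the hnRNPKKD controls read 8.70 to 9.45. The part of this low signal in the Agtr2 difference was not tested. The difference of Rgs4 was called in every alternative run, although its hnRNPKKD arrays lay near or below the filter limit of 4.54.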

How the results depend on the processing

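Of 54 gene results past the threshold, 37 stayed past it in every alternative run and 17 did not in at least 1. Of 1472 values under alternatives 61 lost a call, 18 gained one and 17 changed sign. These counts include the comparisons that use the p53 siRNA arrays of hnRNPKKD, which are given without a test. Nothing about the genes is read from these counts. The virus comparison had 2 members called without the time block against 4 with it. With single time pairs left out its count ran from 2 to 4, and with single arrays left out the counts ran from 3 to 5 for lincP21 siRNA in lincP21KD (main count 5), from 2 to 5 for p53 against lincP21 siRNA in hnRNPKKD (main count 2) and from 4 to 7 for the difference of p53 siRNA between experiments (main count 7). None of the sign changes was in a called value. The Ednrb slope in AdenoCRE became 0 with centred and 0 with quantile-normalized arrays and -0.01 with the mean over probe sets. With single arrays or pairs left out, the slope in AdenoGFP ran from -0.03 to 0.02 for Agtr2, from -0.19 to 0.01 for Edn1 and from -0.16 to 0 for Rgs5. The slope in AdenoCRE ran from -0.03 to 0.01 for Ednrb and from -0.26 to 0.02 for Edn1, and the slope difference of Edn1 from -0.13 to 0. With single arrays left out of lincP21KD, Agtr2 with p53 siRNA ran from -0.47 to 0.01 and Agtr1a with lincP21 siRNA from -0.01 to 0.17. In hnRNPKKD, Edn1 ran from -0.04 to 0.18 with lincP21 siRNA and from -0.21 to 0.01 with hnRNP K siRNA, and Rgs5 between those siRNAs from -0.09 to 0.03. The cause of these changes was not tested. With the replicate number as a block, Agtr2 came past the threshold with lincP21 siRNA in lincP21KD (-0.74) and between p53 and lincP21 siRNA in hnRNPKKD (0.44), Ednrb missed it for the difference of p53 siRNA between experiments, and no other call changed. Array signal near the filter limit of 4.54 limits Agtr2 in the time course and lincP21KD, and Agtr1a in lincP21KD and in the hnRNPKKD controls. It also limits Edn1 and Rgs4 in hnRNPKKD and Rgs5 with p53 siRNA in lincP21KD. The 2 control arrays limit lincP21KD.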
